A study of Mus musculus with 18 samples.

Results

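Mature miRNAs were compared between 2 libraries of mouse embryonic stem cells (ESCs) carrying the passage code P4 and 2 libraries carrying the code P2. The 4 libraries were chosen by the column codes of the expression table, out of 18 libraries in 9 groups, and every one of the 1390 miRNA entries of the table was considered. Of these, 944 were above 0 in at least 1 of the 4 libraries, and the 496 entries that reached a normalized count of 10 in at least 2 of them were tested. A normalized count here is a read count that the authors scaled between libraries and rounded to a whole number.

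All groups came from NMRI mice: the inner cell mass (ICM) was isolated from blastocysts of embryonic day 3.5 by immunosurgery and plated on gelatin in N2B27 medium with leukemia inhibitory factor and R2i. R2i is the pair of inhibitors PD0325901, which blocks the kinase MEK, and SB431542, which blocks activin and TGF-beta receptors. P4 and P2 libraries differ only in their passage label, and no treatment or genotype separates them. The labels disagree on the passage. Libraries coded P4 are titled passage 15, those coded P2 are titled passage 4, and those coded P15 are titled passage 2. P4 libraries are the later ones under both readings. Nothing in the labels says that the 2 libraries of a group came from separate lines or cultures, so the p-values measure the spread between replicate libraries, which may be technical. The main fit pooled that spread over the 8 libraries of P4, P2, P15 and day 5 and assumed it equal in all groups.

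MicroRNAs are short RNAs that guide Argonaute proteins to messenger RNAs, which are then repressed. A miRNA is cut from one side of a hairpin, so a hairpin can give a 5p and a 3p product, and neighbouring hairpins are often cut from 1 transcript. Targets are recognised mainly through the seed, the bases near the 5′ end, and miRNAs with the same seed form a family. In mouse ESCs the miR-290 cluster and its seed relatives promote the passage from G1 to S phase, whereas let-7 miRNAs accompany differentiation and their maturation is blocked by LIN28 proteins. The miR-302 cluster carries the same seed as 3p products of miR-290 and is known from the post-implantation epiblast.

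The sequences below are the mature miRNAs on which the comparison turns, with the seed, bases 2 to 8, in capitals. They were taken from RefSeq on GRCm38.p6 and are grouped by shared seed. Of the 1390 entries, 1171 matched a RefSeq mature miRNA. The first set has the AAGUGCU seed of the ESC and epiblast clusters, with the offset AAAGUGC seed of the miR-17 and miR-106a clusters after it.
miR-302b-3p: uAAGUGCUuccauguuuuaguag
miR-302d-3p: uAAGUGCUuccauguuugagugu
miR-295-3p: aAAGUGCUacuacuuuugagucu
miR-294-3p: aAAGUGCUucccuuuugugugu
miR-17-5p: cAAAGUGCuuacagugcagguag
miR-20b-5p: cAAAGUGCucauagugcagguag

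The second set holds let-7 members that moved in opposite directions with 1 seed, and the miR-16 seed shared by miR-322, which differed in the size of its change.
let-7c-5p: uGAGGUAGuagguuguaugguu
let-7e-5p: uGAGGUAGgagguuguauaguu
let-7g-5p: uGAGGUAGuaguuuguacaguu
miR-322-5p: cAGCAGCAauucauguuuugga
miR-16-5p: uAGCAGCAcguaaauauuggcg

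The third set holds 3 entries listed at 0 in both libraries of 1 group, with the near-identical relative of 2 of them.
miR-92b-3p: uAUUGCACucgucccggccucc
miR-92a-3p: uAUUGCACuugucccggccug
miR-26b-5p: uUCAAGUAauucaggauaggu
miR-26a-5p: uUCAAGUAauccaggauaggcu
miR-432: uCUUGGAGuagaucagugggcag

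The last set holds miRNAs with large rises and the most abundant imprinted one.
miR-10a-5p: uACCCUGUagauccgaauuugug
miR-465a-3p: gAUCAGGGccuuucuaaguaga
miR-470-5p: uUCUUGGAcuggcacuggugagu
miR-668-3p: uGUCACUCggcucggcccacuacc
miR-541-5p: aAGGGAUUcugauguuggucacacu

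Normalized counts summed to 1209786 and 906381 in the P4 libraries, and to 781162 and 814289 in the P2 libraries. Read depth itself is unknown: it would lie between 2420000 and 9060000 reads if the lowest listed value stood for 5 reads. Replicates differed by more than counting noise would give under that reading. On log2(normalized count + 1) the P4 pair correlated at 0.974 across the 496 miRNAs and the P2 pair at 0.992, and 52 miRNAs differed over 2-fold between the P4 libraries, against 4 between the P2 libraries. The 4 correlations between a P4 and a P2 library lay between 0.767 and 0.814.

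Of 496 miRNAs tested, 310 differed between P4 and P2 at an adjusted p below 0.05 (limma, Benjamini-Hochberg), which is 62.5%. Of all tested, 27.6% were higher in P4 and 34.9%, which is 173 miRNAs, were lower. Both P4 libraries lay above both P2 libraries for 191 miRNAs, 38.5%, and below them for 226, 45.6%. The median log2 change over all tested miRNAs was -0.15. After scaling to equal library totals it was -0.53, with 34.0% of 312 calls higher, and with trimmed mean scaling it was 0.0246, with 51.9% of calls higher, against 44.2% of the 310, so changes are read against these shifts.

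**Figure D1:**
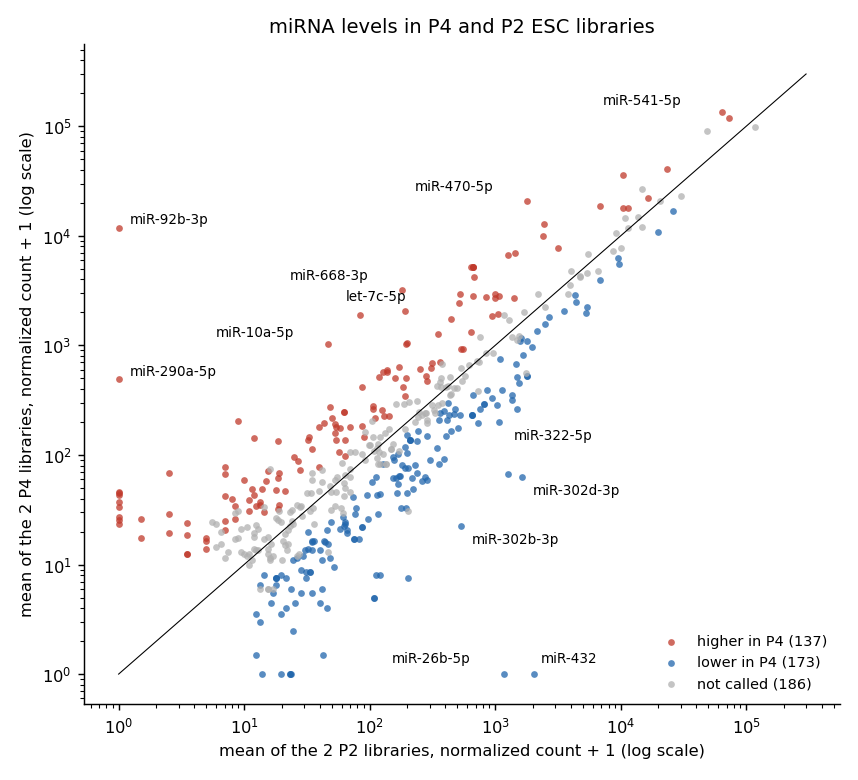
Mean normalized count + 1 in the 2 P4 libraries (vertical, log scale) against the 2 P2 libraries (horizontal, log scale) for 496 tested miRNAs, each point 1 miRNA, with the line of equal level. miR-302d-3p lies far below the line and let-7c-5p, miR-668-3p and miR-470-5p far above it, while miR-92b-3p and miR-290a-5p sit on the axis of P2 values listed at 0.

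The miR-302 cluster, which also holds miR-367, fell the furthest of the clusters examined. It lies on chr3:127545228-127545807 of GRCm38, and all 8 tested members were lower in P4, with a median log2 change of -4.42. miR-302d-3p had 57 and 67 normalized counts in the P4 libraries, against 1555 and 1687 in the P2 libraries (log2 change -4.69, SE 0.26, adjusted p = 2.375e-05). miR-302a-3p had 72 and 59 in P4 and 1153 and 1391 in P2, a change of -4.26. miR-302b-3p had 21 and 22 in P4 and 562 and 506 in P2, a change of -4.57. The minor product miR-302a-5p averaged 6.5 ± 0.71 in P4 and 199.5 ± 9.2 in P2 (SD, n = 2 each), a change of -4.74, and its ratio to the 3p arm did not pass the test (adjusted p = 0.228). Bracketed numbers after the values of a miRNA are, here and below, log2 changes of P4 over P2 on the scale of log2(normalized count + 1), which understates the change of low entries. In each of these 4 the groups were far apart relative to the difference between their replicates.

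miR-302c-5p was listed at 0 in both P4 libraries and at 16 and 21 in the P2 libraries, and miR-302b-5p was listed at 0 in all 4. The summed level of the cluster was 167 and 166 in P4 and 3658 and 4014 in P2. The P15 libraries held 841 and 816, and the day 5 outgrowths held 2020 and 1627, so the P4 libraries were the lowest of these 8. As a share of all normalized counts the cluster took 0.0138% and 0.0183% in P4, against 0.468% and 0.493% in P2. Since these are bulk libraries, fewer cells of a type and less of a miRNA per cell cannot be told apart, here and below.

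The miR-290 cluster, which runs from miR-290a to miR-295 and is abundant in ESCs, did not move as 1 unit. It lies on chr7:3218626-3220841 and took 9.0% and 13.6% of normalized counts in P4, against 14.9% and 13.1% in P2, so the groups overlapped in the share. Of 14 tested members, 4 rose and 5 fell, which is 28.6% and 35.7%, near the 27.6% and 34.9% of all tested miRNAs. The median log2 change was -0.33, which turned to 0.26 and 0.0572 when a trend with the GC content of the mature sequence or of the hairpin was removed. The split followed the hairpin arm: 4 of 7 5p products rose and 1 fell, with a median of 0.77, and none of 7 3p products rose and 4 fell, with a median of -0.71. The 4 rises include miR-290a-5p, listed at 0 in both P2 libraries. The 5p and 3p medians were 0.37 and -1.10 after scaling to equal library totals and 0.20 and -1.02 with quantile normalization. With the mature GC trend removed they were 0.34 and -0.56. Over miRNAs above 0 in all 4 libraries the 5p median was 0.40.

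miR-292-5p, among the most abundant products of the cluster, had 38252 and 43450 normalized counts in P4 and 23942 and 22825 in P2 (log2 change 0.80, SE 0.19, adjusted p = 0.009969). Its partner miR-292-3p had 9205 and 12399 in P4 and 20582 and 18802 in P2, a change of -0.88. Neither call held under every setting: miR-292-5p had an adjusted p of 0.199 after scaling to equal library totals, and miR-292-3p had 0.0697 with trimmed mean scaling. Leaving out a P2 library also ended both, with adjusted p-values of 0.0528 and 0.0646 for miR-292-5p, and 0.138 and 0.0938 for miR-292-3p, without P2 replicate 1 and 2 in turn, and miR-292-3p had 0.149 without P4 replicate 1. The sum of 5p products was 1.453 and 1.31 times that of 3p products in the P4 libraries, against 0.572 and 0.62 in the P2 libraries. It was 1.371 and 1.708 in P15 and 0.903 and 1.195 at day 5, so the P2 libraries were the ones with the lowest ratio.

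The 3p products miR-295-3p and miR-294-3p did not pass the test. miR-295-3p had 21020 and 24714 in P4 and 31835 and 28559 in P2 (log2 change -0.40, SE 0.20, adjusted p = 0.1152), and its change was 0.66 with the GC trend of the mature sequence removed. miR-294-3p had 6754 and 6867 in P4 and 6178 and 4838 in P2, a change of 0.32 that turned to -0.0759 after scaling to equal library totals. Over the 5 tested miRNAs with a RefSeq sequence of the AAGUGCU seed, the summed level was 28763 and 32969 in P4 and 42075 and 37218 in P2.

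The miR-17-92 cluster, which promotes proliferation and is cut from Mir17hg, fell with 1 exception. On chr14:115043671-115044506, 9 of 10 tested members fell and 1 rose, with a median log2 change of -1.31. miR-19b-3p had 290 and 417 in P4 and 1381 and 1333 in P2 (-1.96), and miR-17-5p had 582 and 771 in P4 and 1411 and 1540 in P2 (-1.14). miR-92a-1-5p had 1298 and 1422 in P4 and 2242 and 2089 in P2 (-0.67). The exception was miR-92a-3p, by far the most abundant product, with 119083 and 118837 in P4 and 74501 and 71583 in P2 (log2 change 0.70, SE 0.15, adjusted p = 0.006198). That call was lost after scaling to equal library totals (adjusted p = 0.211), with quantile normalization (0.882) and with the GC trend of the mature sequence removed (0.671). It was also lost without P2 replicate 1 (0.0513) and without P2 replicate 2 (0.0612). A 2nd hairpin on another chromosome also yields miR-92a-3p.

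Its X-linked paralog, the miR-106a-363 cluster on chrX:52741693-52742567, had 7 of 7 tested members lower in P4, with a median of -1.55. miR-363-3p had 551 and 474 in P4 and 1389 and 1605 in P2 (-1.54), miR-106a-5p had 229 and 298 in P4 and 664 and 843 in P2 (-1.51), and miR-20b-5p had 169 and 222 in P4 and 706 and 765 in P2 (-1.92). The summed level of this cluster was 1080 and 1167 in P4 and 3277 and 3683 in P2. Both the 7 members and the sum leave out miR-92a-3p and miR-19b-3p. Each of these has a further hairpin and was counted only with miR-17-92. miR-92a-3p rose and miR-19b-3p fell, as given above.

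The miR-106b-25 cluster, the paralog within Mcm7, was mixed, with 1 of 6 higher and 2 lower. That is 16.7% and 33.3%, against 27.6% and 34.9% of all tested miRNAs. miR-93-5p had 1716 and 2213 in P4 and 5415 and 5135 in P2 (-1.44), whereas miR-25-3p had 8259 and 6142 in P4 and 8508 and 8869 in P2 (-0.29, adjusted p = 0.190). All 6 tested miRNAs with the AAAGUGC seed, which come from these 3 clusters, fell, and together they had 3133 and 4079 in P4 and 9605 and 9776 in P2. The same 6 held 9985 and 9514 in P15.

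let-7 members split in spite of their common seed. Of 9 tested, 4 rose and 3 fell, with a median of 0.79. That is 44.4% and 33.3%, against 27.6% and 34.9% of all tested miRNAs. let-7c-5p had the largest rise of called miRNAs with a mean of at least 100 that were above 0 in all 4 libraries: 1898 and 1852 in P4, against 83 and 84 in P2 (log2 change 4.47, SE 0.12, adjusted p = 1.148e-06). let-7e-5p had 285 and 259 in P4 and 50 and 44 in P2 (2.51), and let-7a-5p had 254 and 259 in P4 and 132 and 117 in P2 (1.04). let-7b-5p had 27 and 23 in P4, against 0 and 1 in P2.

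The other 3 calls went the other way. let-7g-5p had 101 and 104 in P4 and 203 and 193 in P2 (-0.94), let-7i-5p had 40 and 46 in P4 and 132 and 110 in P2 (-1.47), and miR-98-5p had 16 and 13 in P4 and 44 and 48 in P2 (-1.61). let-7f-5p, the most abundant in P2, had 763 and 681 in P4 and 785 and 639 in P2, and the groups overlapped (log2 change 0.03). let-7c-5p differs from let-7a-5p and from let-7b-5p by 1 base each, and how the authors assigned reads between such relatives is not given in the sources used here. In P15 let-7c-5p had 318 and 303, and at day 5 it had 107 and 104, so P4 was the highest of the 8 libraries. The family sum was 3445 and 3305 in P4 and 1469 and 1270 in P2, and the 3 falling members lost their calls with the mature GC trend removed: the change was -0.31 for miR-98-5p (adjusted p = 0.337), -0.0041 for let-7g-5p (0.981) and -0.88 for let-7i-5p (0.0649). let-7i-5p also had an adjusted p of 0.0633 without P2 replicate 1.

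**Figure D2:**
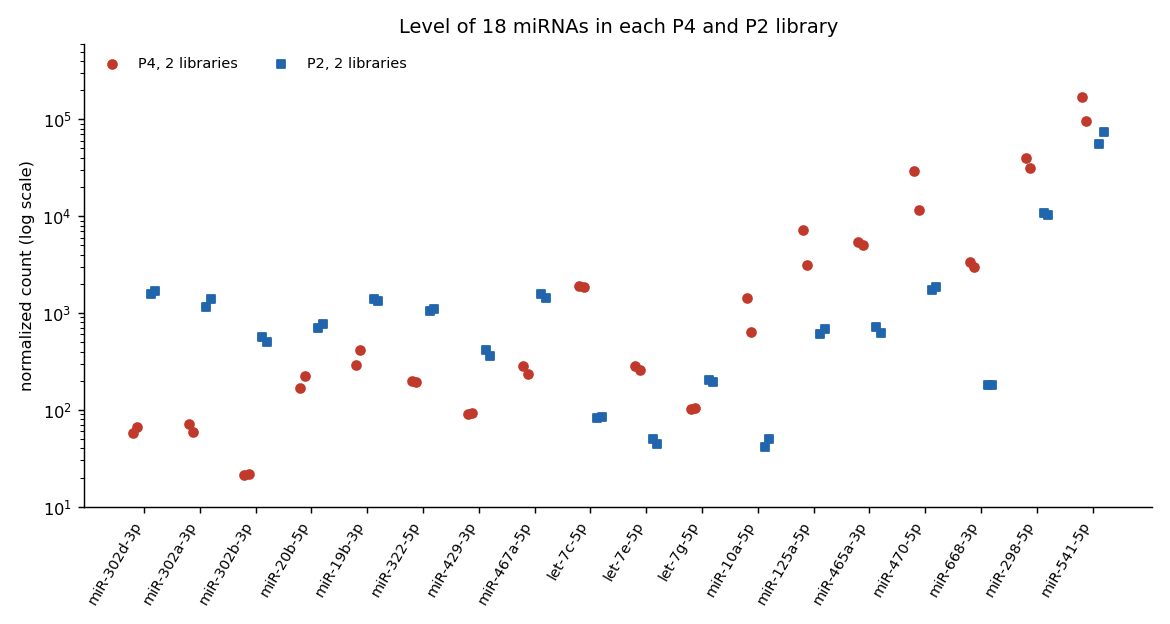
Normalized count (log scale) of 18 miRNAs in each library, P4 as circles to the left and P2 as squares to the right of each name. miR-302d-3p is at 57 and 67 in P4 and 1555 and 1687 in P2, let-7c-5p is at 1898 and 1852 in P4 and 83 and 84 in P2, and the 2 P4 libraries of miR-470-5p and miR-10a-5p lie further apart than their P2 libraries.

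The cluster that holds let-7e, on chr17:17830188-17830879, rose in all products tested: the 5 of miR-99b, let-7e and miR-125a were all higher in P4. These miRNAs are known from differentiation, and miR-125 is the vertebrate relative of the worm miRNA lin-4. miR-125a-5p had 7161 and 3145 in P4 and 601 and 677 in P2 (2.89, SE 0.44, adjusted p = 0.001489). miR-99b-5p had 10377 and 3419 in P4 and 1232 and 1632 in P2 (2.07, SE 0.60, adjusted p = 0.0208). The P4 libraries lay far apart from each other here, and miR-99b-5p had an adjusted p of 0.092 without P4 replicate 1, 0.102 without P2 replicate 1 and 0.0591 without P2 replicate 2. With the mature GC trend removed, the change was 1.02 for miR-99b-5p (adjusted p = 0.17) and 0.67 for miR-99b-3p (0.114), and with the hairpin trend removed it was 1.13 (0.115) and 0.78 (0.0675). The median of the miR-125/miR-99/miR-100 list, 1.99, was 1.07 and 1.22 in these settings. As a list, they took 1.47% and 0.74% in P4 and 0.242% and 0.291% in P2.

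The miR-181 family rose in 4 of 5 tested members. miR-181d-5p averaged 1026.5 ± 33.2 in P4 and 193.5 ± 2.1 in P2 (SD, n = 2 each; 2.40), and miR-181a-5p had 636 and 780 in P4 and 397 and 328 in P2 (0.96). miR-181b-5p had 28 and 25 in P4 and 30 and 26 in P2 (-0.08), with 273 in each P15 library, and its groups overlapped. With all 18 libraries in the fit, miR-181d-5p and miR-181a-5p had adjusted p-values of 0.273 and 0.423.

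Of the miRNAs encoded in Hox gene clusters, miR-10a-5p and miR-196a-5p were also higher. miR-10a-5p, encoded on chr11 near Hoxb genes, had 1415 and 634 in P4 and 41 and 50 in P2 (4.36, SE 0.52, adjusted p = 0.0005857), and miR-196a-5p had 586 and 605 in P4 and 127 and 147 in P2 (2.12, with an adjusted p of 0.428 when all 18 libraries were fitted). miR-10b-5p, which differs from miR-10a-5p by 1 base, had 551 and 220 in P4 and 668 and 787 in P2 (-1.06, adjusted p = 0.0925). miR-10a-5p had 395 and 399 in P15.

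An X-linked cluster known from male germ cells rose. Its members miR-463 to miR-883 lie in 2 stretches, chrX:66776757-66814025 and chrX:66825955-66839125, and 13 of 22 tested were higher in P4 and none lower, with a median log2 change of 1.09. miR-470-5p had 29582 and 11651 in P4, against 1717 and 1839 in P2 (3.38, SE 0.48, adjusted p = 0.001177). miR-871-3p had 9830 and 3513 in P4 and 1139 and 1376 in P2 (2.23), with an adjusted p of 0.0614 without P2 replicate 1. miR-465a-3p, miR-465b-3p and miR-465c-3p have the same seed and 1 set of values, 5375 and 5012 in P4 and 715 and 620 in P2 (2.96), so they are 1 measurement. The cluster took 5.09% and 3.94% of normalized counts in P4, 0.965% and 0.928% in P2, and 0.188% and 0.182% in P15.

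The Sfmbt2 cluster, a rodent-specific array of miR-466, miR-467 and miR-669 hairpins in an intron of Sfmbt2 on chr2, fell almost throughout. Of 45 tested entries 43 were lower in P4 and 1 was higher, with a median of -1.67, and the median was -1.04 with the hairpin GC trend removed. Those 45 entries hold 35 distinct sets of values, so some are the same measurement. miR-467a-5p had 283 and 237 in P4 and 1569 and 1424 in P2 (-2.52, SE 0.22, adjusted p = 0.0001894). miR-669a-5p had 556 and 490 in P4 and 1730 and 1834 in P2 (-1.77).

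Among the larger falls at this level were miR-467h and miR-467b-5p. miR-467h, encoded on chr9 outside this cluster, had 31 and 57 in P4 and 188 and 209 in P2 (-2.21). Within the cluster, miR-467b-5p had 32 and 32 in P4 and 204 and 182 in P2 (-2.55). The 1 higher entry, miR-669o-5p, was at 47 and 41 in P4 and listed at 0 in both P2 and both P15 libraries, with an adjusted p of 0.0591, 0.0614 and 0.0603 without P4 replicate 1, P2 replicate 1 and P2 replicate 2 in turn. The whole cluster summed to 4326 and 4291 in P4, 13067 and 13782 in P2, and 5722 and 5128 in P15.

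**Figure D3:**
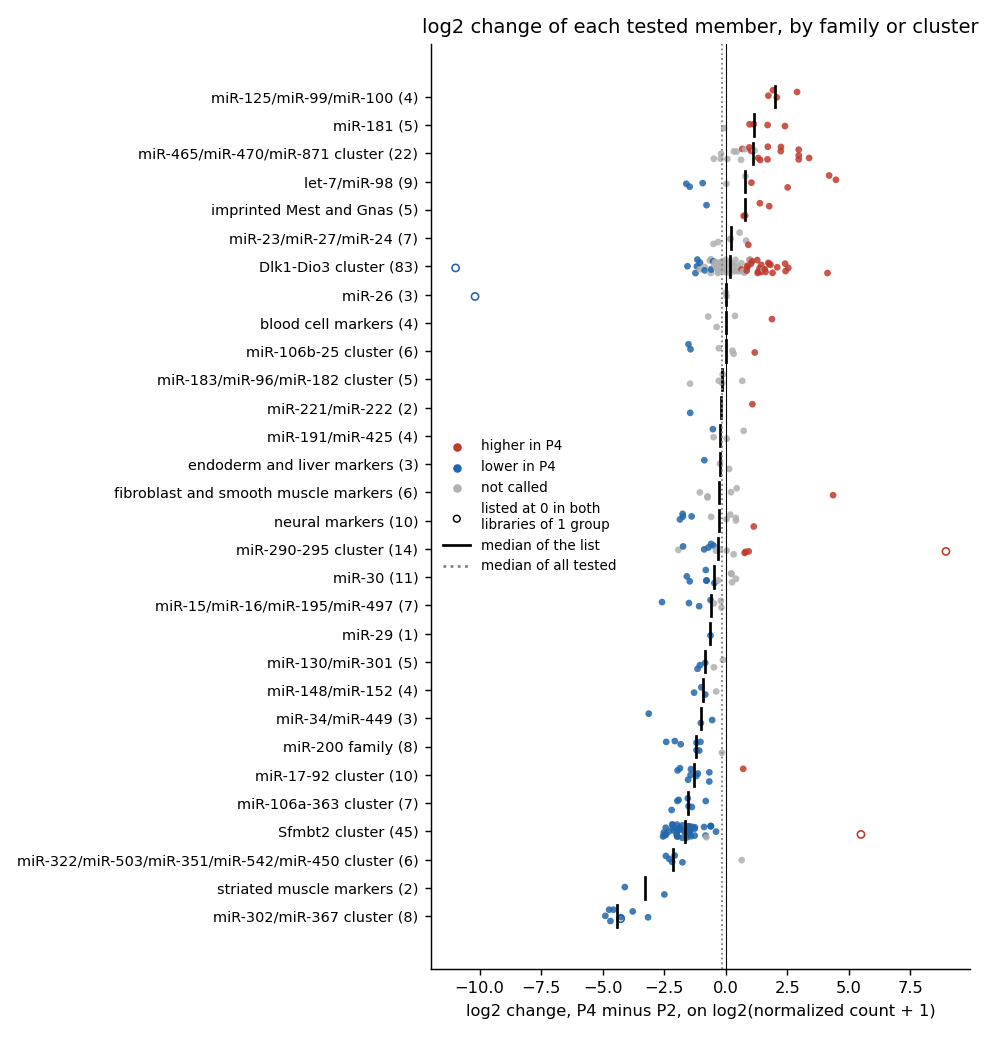
log2 change (P4 minus P2, on log2 of the normalized count + 1) of each tested member of 30 families, clusters and marker lists, with the number tested in brackets. Filled points are coloured by call, open points are entries listed at 0 in both libraries of 1 group, whose position is set by the added 1, black bars are list medians, and the dotted line is the median of all 496 tested. Every tested member of the miR-302 and miR-106a-363 lists is lower in P4, while the 83 Dlk1-Dio3 members spread to both sides.

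The Dlk1-Dio3 cluster on chr12, expressed from the maternal chromosome and frequently silenced in cultured pluripotent cells, took 26.1% and 26.3% of normalized counts in P4 and 20.5% and 21.4% in P2. P15 libraries held 1.79% and 1.89%, and day 5 outgrowths 11.8% and 11.4%. Without miR-541-5p, left out of the cluster and of the total in every library, the share was 13.97% and 17.46% in P4 and 14.5% and 13.63% in P2, and the groups overlapped. Of 83 tested members 25 rose and 9 fell. That is 30.1% and 10.8%, against 27.6% and 34.9% of all tested miRNAs, so the share that rose was near that of all miRNAs. The median of 0.15 turned to -0.23 after scaling to equal library totals. By position, 8 of 20 products encoded before Rian were higher and 2 lower. Within Rian 2 of 4 were higher and none lower, and after Rian 15 of 59, 25.4%, were higher and 7 lower. With the mature GC trend removed, the rises within Rian lost their calls: miR-341-5p (-0.10, adjusted p = 0.74) and miR-370-3p (0.50, adjusted p = 0.142). Before Rian only the rises of miR-540-3p, miR-433-3p and miR-673-5p kept theirs. Some rises after Rian were lost too, among them miR-666-5p (0.58, adjusted p = 0.102).

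miR-541-5p, the most abundant member, had 170331 and 97066 in P4 and 55207 and 73215 in P2 (1.02, SE 0.32, adjusted p = 0.03031). Its call was lost without P4 replicate 1 (adjusted p = 0.139), without P2 replicate 1 (0.164), without P2 replicate 2 (0.059), in the fit with a replicate block (0.0545) and with quantile normalization (0.141). miR-409-3p had 18304 and 17703 in P4 and 11921 and 11160 in P2 (0.64), with an adjusted p of 0.291 after scaling to equal library totals, 0.254 with quantile normalization and 0.0511 without P2 replicate 2, and a change of 0.21 with the mature GC trend removed (adjusted p = 0.202). miR-668-3p stood out with 3383 and 2967 in P4, against 180 and 180 in P2 (4.13, SE 0.13, adjusted p = 2.114e-06), and it had 90 and 87 in P15.

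Other members of the locus rose by intermediate amounts. miR-540-3p had 12714 and 13072 in P4 and 2650 and 2227 in P2 (2.41). miR-127-3p, known to cleave the Rtl1 transcript, had 21541 and 15579 in P4 and 6221 and 7418 in P2 (1.43), and its call was lost without P4 replicate 1 (adjusted p = 0.0846), P2 replicate 1 (0.0887) and P2 replicate 2 (0.0537), and its change was 0.65 with the mature GC trend removed (adjusted p = 0.192). miR-134-5p, which represses pluripotency factors, had 8288 and 7345 in P4 and 3117 and 3251 in P2 (1.29). miR-494-3p fell, with 93 and 237 in P4 and 480 and 403 in P2 (-1.56), a call lost without P4 replicate 1 (adjusted p = 0.116), P2 replicate 1 (0.119) and P2 replicate 2 (0.076). The change of miR-494-3p was -0.81 with the hairpin (adjusted p = 0.165) and -1.33 with the mature GC trend removed (0.0576). Abundance within the locus shifted unevenly between members of 1 transcribed region.

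Imprinted hairpins elsewhere gave 4 of 5 products higher and 1 lower. The rises include miR-296-5p (0.72) and miR-296-3p (1.38). With the mature GC trend removed these were -0.52 (adjusted p = 0.076) and 0.07 (adjusted p = 0.72). With the hairpin GC trend removed they were -0.06 (adjusted p = 0.812) and 0.59 (adjusted p = 0.0167). The other rises, miR-298-5p (0.61) and miR-335-3p (1.72), kept their calls with the mature GC trend removed. miR-298-5p of the Gnas region on chr2 had 39921 and 31801 in P4 and 10799 and 10214 in P2 (1.76, SE 0.18, adjusted p = 0.0002849). Within Mest, miR-335-3p had 1072 and 794 in P4 and 507 and 565 in P2 (0.78, adjusted p = 0.0648 without P4 replicate 1 and 0.077 without P2 replicate 1), while the opposite arm miR-335-5p fell by 0.79 on the log2 scale (limma adjusted p = 0.00534). The change of miR-335-5p was 0.62 with the mature GC trend removed.

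A further X chromosome cluster, which starts with miR-322 and miR-503 and is known to slow the cell cycle through both, lies on chrX:53047997-53054349. It had 5 of 6 tested members lower and none higher, with a median of -2.13, which was -0.94 with the mature and -1.53 with the hairpin GC trend removed. miR-322-5p had 200 and 195 in P4 and 1052 and 1096 in P2 (-2.44, SE 0.12, adjusted p = 1.693e-05), and miR-542-3p had 51 and 64 in P4 and 304 and 266 in P2 (-2.30). miR-351-5p, the most abundant member, had 2373 and 1440 in P4 and 1125 and 1243 in P2 (0.64, adjusted p = 0.0948), and its change was -0.34 with the mature GC trend removed.

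In the miR-15/miR-16 family, which also restrains the cell cycle, 4 of 7 tested products were lower, 57.1% against 34.9% of all tested miRNAs. The 7 include 3p arms, which lack the AGCAGCA seed that the 5p arms share with miR-322-5p. Of the 5 tested miRNAs with that seed, miR-322-5p among them, 3 were lower. miR-16-5p had 17760 and 16140 in P4 and 23614 and 28763 in P2 (-0.62, adjusted p = 0.0138). That call was lost with trimmed mean scaling (adjusted p = 0.0534), without P4 replicate 2 (0.051), without P2 replicate 2 (0.114) and with the mature GC trend removed (0.082), and the change was 0.0596 with the hairpin GC trend removed. miR-15b-5p had 283 and 177 in P4 and 250 and 267 in P2, and the groups overlapped.

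Epithelial miR-200 miRNAs, which repress Zeb1 and Zeb2, were lower in 7 of 8 tested members, with a median of -1.19. miR-200b-3p had 817 and 812 in P4 and 1551 and 1790 in P2 (-1.03), but its change was -0.0929 with the mature GC trend removed (adjusted p = 0.648). miR-429-3p had 90 and 92 in P4 and 414 and 360 in P2 (-2.07), and miR-200a-3p had 33 and 31 in P4 and 183 and 169 in P2 (-2.42). By contrast, none of the 5 tested products of the cluster of miR-183, miR-96 and miR-182 passed the test. miR-182-5p, the most abundant miRNA over the 4 libraries, had 119225 and 77711 in P4 and 113745 and 121388 in P2, and miR-183-5p had 39641 and 13597 in P4 and 11977 and 17860 in P2. In both the groups overlapped. miR-191-5p also overlapped between groups, with 132181 and 47602 in P4 and 41181 and 55977 in P2, so its log2 change of 0.72 was within the spread (SE 0.57, adjusted p = 0.304). Its neighbour miR-425-5p had 705 and 808 in P4 and 1034 and 1144 in P2 (-0.53), a call lost with trimmed mean scaling (adjusted p = 0.112) and without P4 replicate 1 (0.0992), P2 replicate 1 (0.059) or P2 replicate 2 (0.117).

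In the list of miR-34, which is p53-responsive, and miR-449, all 3 tested products were lower: miR-34c-5p, miR-34a-5p and miR-449a-5p (-3.13). The other miR-34 products were too low to be tested. miR-34c-5p had 196 and 271 in P4 and 518 and 421 in P2 (-1.02), and miR-34a-5p had 164 and 163 in P4 and 248 and 234 in P2 (-0.56), a call lost with trimmed mean scaling (adjusted p = 0.124). Without P4 replicate 1, P4 replicate 2, P2 replicate 1 and P2 replicate 2 in turn miR-34a-5p had adjusted p-values of 0.0918, 0.0822, 0.144 and 0.0974, and miR-34c-5p was lost without P4 replicate 1 (0.0795) and P2 replicate 1 (0.0912). With the hairpin GC trend removed, the change was -0.49 for miR-34c-5p (adjusted p = 0.14) and -0.19 for miR-34a-5p (0.417). miR-210-3p, which hypoxia induces, had 258 and 307 in P4 and 1123 and 961 in P2 (-1.88), and 1385 and 1545 in P15.

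Among widely expressed families, miR-30 members, which are common in epithelial and other differentiated cells, were lower in 6 of 11 and higher in none. The lower share was 54.5%, against 34.9% of all tested miRNAs. miR-30d-5p was at 4805 and 6351 in P4 and 10258 and 9209 in P2 (-0.81), and miR-30e-5p at 3461 and 4504 in P4 and 7026 and 6554 in P2 (-0.78). Both calls were lost without P4 replicate 1 (adjusted p = 0.103 for miR-30d-5p and 0.0834 for miR-30e-5p), P2 replicate 1 (0.11 and 0.0898) or P2 replicate 2 (0.0646 and 0.0611), and miR-30e-5p changed by -0.19 with the mature GC trend removed (0.446). The miR-130/miR-301 list had 3 of 5 lower, 60.0% against the same 34.9%. There miR-130a-3p had 4679 and 4832 in P4 and 6981 and 6321 in P2 (-0.48, adjusted p = 0.0535), and miR-130b-3p had 2487 and 2443 in P4 and 4340 and 4478 in P2 (-0.84). Of 4 tested miR-148/miR-152 products 3 were lower, all of them 5p arms. miR-148a-5p was at 206.5 ± 10.6 in P4 and 413.5 ± 31.8 in P2 (SD, n = 2 each; -0.997). The far more abundant miR-148a-3p, the only 3p arm tested, had 9628 and 5998 in P4 and 9409 and 10559 in P2. It did not pass the test (-0.39, adjusted p = 0.2748).

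miR-29a-3p, of a family that represses DNA methyltransferases, had 85 and 77 in P4 and 136 and 117 in P2 (-0.63), a call lost with trimmed mean scaling (adjusted p = 0.0578) and without P4 replicate 1 (0.0516), P4 replicate 2 (0.0851), P2 replicate 1 (0.147) or P2 replicate 2 (0.0602). Its change was -0.0426 with the mature and -0.0334 with the hairpin GC trend removed (adjusted p = 0.847 and 0.874). In miR-23/miR-27/miR-24, 1 of 7 was higher, and the list's median of 0.20 turned to -0.17 after scaling to equal library totals. miR-27b-3p had 12578 and 8586 in P4 and 8640 and 9751 in P2, and miR-23b-3p averaged 303.5 ± 50.2 in P4 and 204.5 ± 17.7 in P2 (SD, n = 2 each), with a change of 0.56 that did not pass limma (adjusted p = 0.0592). miR-222-3p and miR-221-3p, encoded side by side and repressors of Cdkn1b, went in opposite directions: miR-222-3p had 168 and 196 in P4 and 87 and 84 in P2 (1.08), and miR-221-3p had 19 and 26 in P4 and 66 and 59 in P2 (-1.45).

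Of the entries outside these families, miR-6909-3p averaged 2071 ± 1089 in P4 and 189.5 ± 6.4 in P2 (SD, n = 2 each; 3.34), miR-3968 had 5026 and 3350 in P4 and 648 and 716 in P2 (2.59), and miR-1946a had 285 and 118 in P4 and 9 and 7 in P2 (4.37). The call of miR-1946a was lost without P4 replicate 1 (adjusted p = 0.0577) and without P2 replicate 2 (0.053). The groups of all 3 were apart.

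The 4 most extreme entries were listed at 0 in both libraries of 1 group and at 100 or more in both of the other. miR-92b-3p had 15201 and 8526 in P4 and was listed at 0 in both P2 libraries. miR-290a-5p had 515 and 467 in P4 and was listed at 0 in both P2 libraries. In the other direction, miR-432 was listed at 0 in both P4 libraries and had 2035 and 2012 in P2, and miR-26b-5p was listed at 0 in both P4 libraries and had 1057 and 1289 in P2. An exact 0 can be a failed assignment of reads and not a missing miRNA, so no fold is given. The calls of miR-26b-5p and miR-290a-5p were lost without any 1 of the 4 libraries, with adjusted p-values of 0.0797 to 0.112 for miR-26b-5p and 0.106 to 0.147 for miR-290a-5p.

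Replicates elsewhere in the series also differed for miR-26b-5p, miR-290a-5p and miR-92b-3p. miR-26b-5p was at 0 and 743 at day 5, miR-290a-5p at 0 and 710 in P15, and miR-92b-3p at 0 and 4651 in the ICM. miR-432 was at 9 and 0 at day 0.5. There 9 is the lowest value listed in replicate 1 and 18 the lowest in replicate 2, so these values show no such difference. miR-432 was above 0 in 3 of the 18 libraries, of which 2 are the P2 libraries. miR-92b-3p differs from miR-92a-3p by 3 edits and shares its seed, and the pair summed to 134284 and 127363 in P4 and 74501 and 71583 in P2. miR-26b-5p differs from miR-26a-5p by 2 edits. Together they had 23612 and 18007 in P4 and 21044 and 22518 in P2, and miR-26a-5p alone had 23612 and 18007 in P4 and 19987 and 21229 in P2, so the summed groups overlapped. How far reads moved between these relatives was not tested.

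The balance between the arms of a hairpin was tested in the 119 hairpins with both arms measured. The ratio of 5p to 3p arm was higher in P4 for 18 hairpins, 15.1%, and lower for 16, 13.4%. These counts rest on few libraries: without P2 replicate 1 there were 2 calls, without P2 replicate 2 there was 1, and without P4 replicate 1 there were 17, against 34 with all libraries. With both arms called on their own in 46 hairpins, 38 moved the same way and 8 in opposite directions.

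The 8 were the hairpins of miR-335, miR-291a, miR-292, miR-323, miR-494, miR-210, miR-669o and miR-290a. In the miR-210 hairpin the ratio was 0.602 and 0.532 in P4, against 0.052 and 0.05 in P2 (log2 change 3.48, SE 0.24, adjusted p = 0.0002737). Its 5p arm had 155 and 163 in P4 and 57 and 47 in P2 (1.60), opposite to the fall of the 3p arm given above. With the mature GC trend removed the 5p arm changed by 0.29 (adjusted p = 0.291). In that setting the calls of miR-291a-5p (0.34, adjusted p = 0.0865) and miR-291a-3p (-0.48, adjusted p = 0.108) were lost too. So were those of miR-323-5p (0.64, adjusted p = 0.0834), miR-494-5p (1.42, adjusted p = 0.068) and, as given above, miR-494-3p. miR-335-5p turned to 0.62, as given above. Calls were kept by miR-323-3p, miR-210-3p, miR-335-3p, miR-292-5p and both arms of miR-290a. miR-292-3p and the arms of miR-669o had no mature GC value. In miR-323 the ratio was 0.05 and 0.039 in P4 and 0.008 and 0.006 in P2 (2.60), and in miR-494 it was 0.33 and 0.13 in P4 and 0.021 and 0.03 in P2 (3.06). The other 2 of the 5 largest increases, miR-290a and miR-669o, rest on a 5p arm listed at 0 in both P2 libraries.

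Among decreases, the ratio in miR-149 was 0.328 and 1.089 in P4 and 4.515 and 3.636 in P2 (-2.76). It was 0.03 and 0.055 in P4 and 0.182 and 0.174 in P2 in miR-676 (-2.13), and 0.015 and 0.02 in P4 and 0.085 and 0.068 in P2 in miR-433 (-2.12). In miR-330 it was 0.821 and 1.55 in P4 and 4.231 and 4.179 in P2 (-1.90). The 5th large decrease, miR-26b, rests on its 5p arm listed at 0 in both P4 libraries. In miR-149, miR-676, miR-433 and miR-330 the 3p arm rose and the 5p arm did not pass the test. Of the 10 hairpins named for their ratio, miR-210 alone kept its call without each of the 4 libraries in turn.

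**Figure D4:**
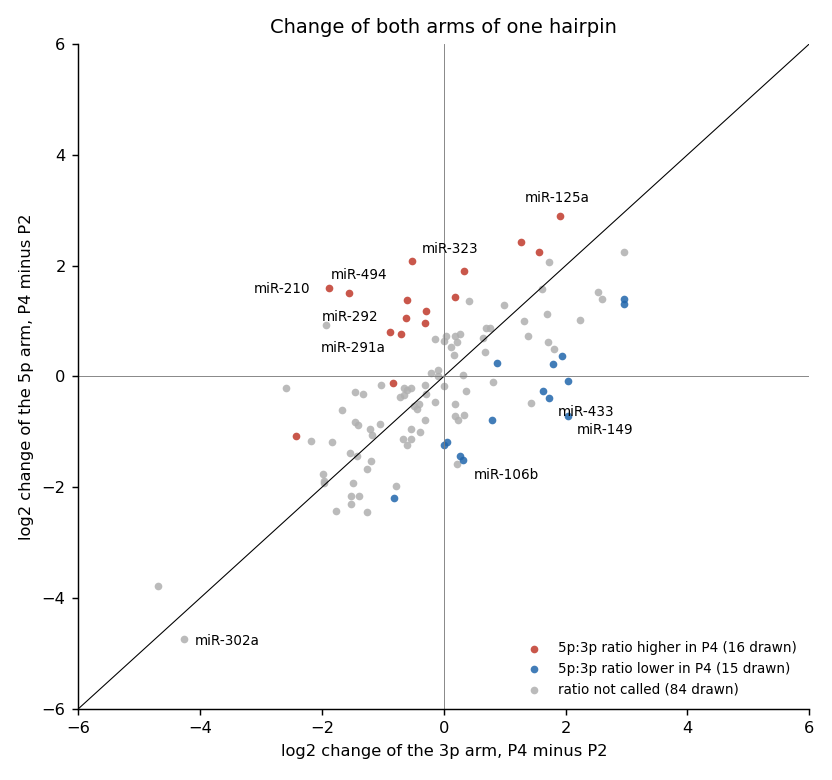
log2 change of the 5p arm (vertical) against the 3p arm (horizontal), P4 minus P2, for the 115 of 119 hairpins with no arm listed at 0 in both libraries of a group. Points on the line have the same change in both arms, miR-302a lies near it with -4.74 for the 5p arm and -4.26 for the 3p arm, and miR-210, miR-494, miR-292 and miR-291a lie in the upper left, where the 5p arm rose and the 3p arm fell.

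The size of a change also moved with base composition. Over 399 tested miRNAs with a RefSeq sequence, the log2 change had a Spearman correlation of 0.435 with the GC content of the mature sequence, given as a description since all points share the same 4 libraries. The 27 miRNAs of up to 35% GC had a median change of -1.52, with 4 higher and 15 lower. The 49 of over 65% GC had a median of 1.38, with 27 higher and 6 lower. The difference between the 2 P4 libraries correlated with GC content at 0.20 and that between the 2 P2 libraries at -0.015.

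With the GC trend of the mature sequence removed, 97 miRNAs were higher and 100 lower, against 122 and 114 on the same 399 without the removal. Of 239 calls in that set 159 were called again, and 12 changed sign. miR-302d-3p stayed at -3.96, let-7c-5p at 5.06, miR-668-3p at 2.89, miR-470-5p at 3.13 and miR-322-5p at -1.84, all with an adjusted p below 0.05. The part of base composition in the differences was not tested further.

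**Figure D5:**
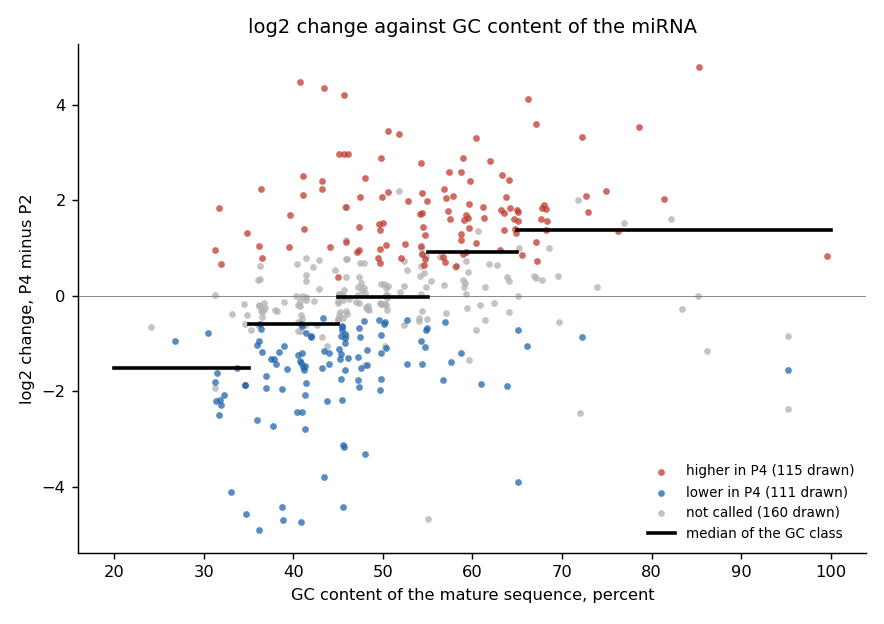
log2 change (P4 minus P2) against the GC content of the mature sequence in percent for 386 miRNAs not listed at 0 in both libraries of a group, with bars for the median of each GC class over all 399. The class medians climb from -1.52 at up to 35% GC to 1.38 at over 65% GC.

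Of 25 tested markers of other cell types 3 were higher and 7 lower, which is 12.0% and 28.0%, against 27.6% and 34.9% of all tested miRNAs. Fibroblast and smooth muscle markers took 0.371% and 0.322% of normalized counts in P4 and 0.37% and 0.337% in P2, and 1 of 6 was called, the miR-10a-5p given above. miR-143-3p, a smooth muscle and fibroblast miRNA, had 2375 and 1636 in P4 and 1783 and 1628 in P2, while miR-214-3p was at 2 and 0 in P4 and 0 in both P2 libraries. Blood cell markers took 0.181% and 0.199% in P4 and 0.259% and 0.272% in P2, with 1 of 4 higher, miR-486-5p (1.87). Among them miR-142-5p had 1344 and 1066 in P4 and 1417 and 1701 in P2, miR-150-5p had 430 and 494 in P4 and 410 and 309 in P2, and the myeloid miR-223-3p was listed at 0 in all 4.

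Neural markers took 0.0571% and 0.0735% in P4 and 0.112% and 0.106% in P2, with 1 of 10 higher and 4, which is 40.0%, lower. Among them miR-128-3p had 452 and 398 in P4 and 415 and 418 in P2, while miR-138-5p had 31 and 75 in P4 and 189 and 145 in P2 (-1.76, adjusted p = 0.0975 without P4 replicate 1, 0.103 without P2 replicate 1 and 0.0575 without P2 replicate 2). Both tested striated muscle markers were lower at very low levels: miR-499-5p had 0 and 6 in P4 and 44 and 45 in P2, and miR-208b-3p had 3 and 4 in P4 and 21 and 28 in P2. Endoderm and liver markers had 1 of 3 lower, miR-194-5p (-0.87). miR-192-5p was at 1519 and 875 in P4 and 1312 and 1414 in P2, and miR-375-3p at 121 and 131 in P4 and 130 and 101 in P2. The hepatocyte miRNA miR-122-5p was listed at 0 in all 4. The part of other cell types in the differences was not tested.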

How the data were processed

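Per the labels' protocols, the PureLink miRNA kit gave the small RNA, and size-selected TruSeq Small RNA libraries were read on an Illumina GAIIx. The submitters' processing notes name cutadapt, DESeq2 1.30.0 and mm10; how reads were aligned and counted is not given in the sources used here. Values deposited by the authors are scores: normalized counts rounded to whole numbers. Since these are not raw counts, no count model was used. Group means of 8 libraries (P4, P2, P15, day 5) were fitted on log2(normalized count + 1) by limma 3.58.1 under R 4.3.3. The fit used a mean-variance trend, robust moderation and 4 residual degrees of freedom. It was first run on simulated data with the same dispersion in every group. That run could not show the effect of unequal spread between P4 and P2 replicates. The p-values were Benjamini-Hochberg adjusted over the 496 miRNAs tested, with a threshold of 0.05. With 2 libraries against 2, an exact permutation test of 1 miRNA cannot go below 0.333. Hairpins were placed on GENCODE vM21 (GRCm38, the build of mm10). Named were the 12 largest called rises and falls with a mean of at least 100 and groups apart, the 10 most abundant miRNAs, entries listed at 0 in 1 group and at 100 or more in the other, the 2 most abundant members of each list, and the 5 largest arm changes each way. Other names were chosen after their values were seen. The members, lists and tests were chosen with earlier results of these data known.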

Additional observations from a re-analysis of the deposited data

How the results depend on the processing

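Across the 21 alternative settings, 42 of the 88 named miRNAs that were called stayed past the threshold in every one run, 2 turned in direction in some setting (miR-16-5p and miR-335-5p), and 19 of the 22 that were not called turned in some setting. These counts leave out miR-99b-3p, miR-194-5p, miR-449a-5p and miR-486-5p. The fit of all 18 libraries in 9 groups left 79 miRNAs higher, 77 lower and 7 arm ratios changed, against 310 calls and 34 arm ratios, and 28 of the 88 named calls were lost. The early libraries in it are shallower. With only miRNAs at 100 or more in at least 2 libraries, 83 were higher and 101 lower of 277 tested. With the mature GC trend removed 100 were lower, and 114 were lower on the same 399 miRNAs without that removal, where fewer miRNAs were tested. The GC settings, the fit of miRNAs above 0 in all 4 libraries and the Dlk1-Dio3 share without miR-541-5p were chosen after seeing the data. A fit with a replicate block gave 134 higher, 157 lower and 26 arm ratios. The differences between replicates 1 and 2 in P4 and P2 correlated at -0.036. Those of day 5 correlated at 0.303 with P2, -0.49 with P4 and 0.0748 with P15. P15 correlated at 0.0247 with P2 and -0.0854 with P4. Whether replicate numbers pair the samples was not tested.

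Leaving out 1 library at a time gave 100 to 135 higher, 120 to 161 lower and 1 to 31 changed arm ratios. The remaining library of that group was then assumed to vary like the other groups. The log2 change spanned -0.12 to 0.17 for let-7f-5p, -0.065 to 0.12 for miR-128-3p, -0.059 to 0.48 for miR-143-3p, -0.54 to 0.13 for miR-15b-5p, -0.60 to 0.021 for miR-182-5p, -0.11 to 1.44 for miR-183-5p, -0.012 to 1.46 for miR-191-5p, -0.64 to 0.16 for miR-192-5p, -0.19 to 0.20 for miR-26a-5p, -0.096 to 0.45 for miR-27b-3p and -0.046 to 0.32 for miR-375-3p. For miR-181b-5p it spanned -0.175 to 0.0243. Medians spanned -0.60 to 0.12 for miR-183/miR-96/miR-182, -0.096 to 0.54 for miR-23/miR-27/miR-24, -0.40 to 0.37 for fibroblast and smooth muscle markers and -0.64 to 0.078 for endoderm and liver markers.

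Changes that turned after scaling to equal totals were let-7f-5p at -0.37, miR-128-3p at -0.37, miR-143-3p at -0.18, miR-150-5p at -0.0199, miR-26a-5p at -0.39, miR-27b-3p at -0.21, miR-294-3p at -0.076, miR-375-3p at -0.25, and the medians of Dlk1-Dio3 at -0.23 and miR-23/miR-27/miR-24 at -0.17. Quantile normalization turned miR-143-3p to -0.31, miR-26a-5p to -0.079, miR-27b-3p to -0.0403, miR-181b-5p to 0.013 and the median of miR-183/miR-96/miR-182 to 0.0038. Trimmed mean scaling turned that median to 0.0245 and miR-181b-5p to 0.091. Removing the mature GC trend turned miR-130a-3p to 0.11, miR-142-5p to 0.81, miR-148a-3p to 0.20, miR-15b-5p to 0.39, miR-181b-5p to 0.13, miR-295-3p to 0.66, miR-335-5p to 0.62, miR-351-5p to -0.34, and the medians of the miR-290 cluster to 0.26 and miR-183/miR-96/miR-182 to 0.079. Removing the hairpin GC trend turned miR-142-5p to 0.061, miR-143-3p to -0.0725, miR-150-5p to -0.40, miR-15b-5p to 0.30, miR-16-5p to 0.0596, miR-181b-5p to 0.26, miR-26a-5p to -0.58, miR-375-3p to -0.81 and the median of the miR-290 cluster to 0.057. With the minimum of 100, the medians of miR-221/miR-222 and miR-191/miR-425 were 1.08 and 0.099, since fewer members were tested. Except where the construction shows it, the cause was not tested.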
